A study of Mus musculus with 20 samples.

Results

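The genes described here are the subunits of the MCM2-7 helicase (Mcm2, Mcm3, Mcm4, Mcm5, Mcm6 and Mcm7), the helicase-associated factor Mcm10, the loading factors Cdc6 and Cdt1, and the Cdt1 inhibitor geminin (Gmnn). They were chosen by name as genes of replication licensing, with earlier results of these data known. All 10 were measured in both experiments, as 10 of the 13107 genes of one and 10 of the 11210 genes of the other. RNA-seq was performed on cultured p19/Nras cells, which come from a mouse liver cancer with Nras as its oncogene and without p19/Arf, a background that every group shares. In the Myc experiment, cells with a control guide (Trim33-WT) and a pair of lines with a guide against Trim33 (Trim33-KO1 and Trim33-KO2), which encodes a ubiquitin ligase, carried either the empty pWZL vector (Ctrl) or a Myc vector. The HU experiment compared Trim33-WT and Trim33-KO cells given 1 mM hydroxyurea (HU), which stalls replication forks by depleting nucleotides, or vehicle for 4 hours, and its KO line carries no number in the labels. Each of the 10 groups had 2 libraries. The study speaks of independent RNA-seq experiments for values of KO against WT cells, but the labels do not say whether the 2 libraries of a group came from separate cultures or whether a KO line is a single clone, so p-values measure the spread between these libraries, which may be technical.

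Licensing marks each replication origin as ready for 1 round of replication. In G1, the origin recognition complex, Cdc6 and Cdt1 load the ring of Mcm2 to Mcm7 onto DNA as an inactive double ring. In S phase the ring joins Cdc45 and GINS and becomes the replicative helicase, a step in which Mcm10 acts, while geminin and ubiquitin-dependent destruction of Cdt1 prevent a further loading. The genes of this group are known targets of E2F factors, and their mRNAs accumulate in cycling cells towards S phase.

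Levels are given as CPM (counts scaled to the normalised library total), differences as log2 fold changes with their standard error (SE), and a gene is said to rise or fall only where edgeR's adjusted p was below 0.01 in the Myc experiment or below 0.05 in the HU experiment. A library held 14753177 to 17949430 counts in the Myc experiment but only 2315327 to 3082202 in the HU one.

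The targeted gene was examined first. With the Ctrl vector, Trim33 stood at 246 and 258 CPM in the WT pair, 123 and 130 in the KO1 pair and 201 and 207 in the KO2 pair, lower in both KO lines. With the Myc vector, Trim33 stood at 131 and 155 CPM in WT, 185 and 193 in the libraries labelled KO1 and 124 and 125 in those labelled KO2. The WT Myc values lay below those of the WT Ctrl pair. The libraries labelled KO1 Myc thus had more Trim33 mRNA than WT Myc (log2 fold change 0.40, adjusted p = 0.000243), which goes against their label. Reads outside the edited site can persist in a knockout, so the level of mRNA alone does not show whether protein was made. Myc mRNA stood at 433 and 439 CPM in WT Ctrl and at 456 and 458 CPM in WT Myc (log2 fold change 0.07, adjusted p = 0.31). With the Ctrl vector Myc was lower in KO1 (186 and 196 CPM, log2 fold change -1.19, adjusted p = 3.34e-11) and KO2 (210.3 and 218.5 CPM, -1.02, adjusted p = 2.52e-10) than in WT. With the Myc vector it was at 621 and 646 CPM in the libraries labelled KO1 and 459 and 499 CPM in those labelled KO2, a rise over the Ctrl vector of 1.73 (adjusted p = 1.2e-12) and 1.16 (adjusted p = 9.14e-11) on the log2 scale. The Myc vector thus went with more Myc mRNA in both KO lines, and a rise was not detected in WT.

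Other genes also separated the KO lines in opposite ways under the vectors. The summed fibroblast markers Col1a1, Col1a2, Col3a1 and Pdgfrb (4 of the 5 listed, Dcn not in the table) were at 711 to 791 CPM in KO1 Ctrl and 714 to 729 CPM in the libraries labelled KO2 Myc. They were at 174 to 193 CPM in KO2 Ctrl, 103 to 113 CPM in the libraries labelled KO1 Myc and 182 to 222 CPM in the 2 WT groups. Afp, a fetal liver gene, was at 0.80 and 0.92 CPM in KO1 Ctrl and 8.56 and 8.13 CPM in KO2 Ctrl, but at 3.55 and 2.53 CPM in the libraries labelled KO1 Myc and 0.30 and 0.22 CPM in those labelled KO2 Myc. In WT, Afp was at 33.0 and 30.2 CPM with the Ctrl vector and 25.1 and 19.5 CPM with the Myc vector. Of the 2398 genes that differed between KO2 and KO1 with the Ctrl vector, 317 (13.2%) kept the sign of that difference with the Myc vector, and of the 654 that were also at least 2-fold apart, 20 (3.06%) did. The Myc vector groups are therefore called by their labels below. The members' KO results with the Myc vector are followed by values averaged over both KO lines, which do not depend on which line is which. Averages set against WT, and the averaged interaction, still use the WT Myc libraries, whose Trim33 mRNA was below that of WT Ctrl. Shares of all genes given with these results are for each line alone. Those for the averages, which use more KO libraries, are not given. In the HU experiment Trim33 stood at 125 to 142 CPM in the WT libraries and 43.8 to 52.2 CPM in the KO libraries. The labelled liver origin could be checked on 1 of 10 hepatocyte markers in the Myc experiment (Afp, 0.22 to 33.0 CPM). In the HU experiment it could be checked on 2 of 10 (Afp and Apob), with Alb in neither table. The epithelial keratins Krt8, Krt18 and Krt19 summed to 1910 to 4306 CPM in all libraries. The other listed epithelial markers, Epcam and Cdh1, were in neither table. Endothelial markers were in neither table, and of the leukocyte markers both tables held Cd68 alone.

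RefSeq promoters on GRCm38.p6 were searched on both strands for E2F-like letters (TTGGCGC or TTCCCGC or TTGCCGC or TTCGCGC), CHR-like letters (TTTGAA or TTCGAA) and the E-box CACGTG, from 250 bases before to 50 after the start. These stretches were chosen because E2F sites are the textbook control of licensing genes. Of the members, 8 had a promoter in the table, with 9 promoters in all since Mcm7 had 2, and Mcm4 and Gmnn are named only. The sequences just before the start, from position -180 to -1 on the coding strand, are given for Mcm6, with its paired E2F-like letters, for Mcm5 and Cdc6, which hold them farther from the start, and for Mcm2, which holds none, at chr1:128359706-128359885 (minus strand), chr8:75109329-75109508 (plus), chr11:98907971-98908150 (plus) and chr6:88898781-88898960 (minus). Capitals mark matches on either strand, E2F-like in the first 3 and CHR-like in Mcm2.
Mcm6: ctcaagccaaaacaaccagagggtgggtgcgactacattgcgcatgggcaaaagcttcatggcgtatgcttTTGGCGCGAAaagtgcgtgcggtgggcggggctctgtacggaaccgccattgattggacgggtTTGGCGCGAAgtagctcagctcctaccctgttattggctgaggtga
Mcm5: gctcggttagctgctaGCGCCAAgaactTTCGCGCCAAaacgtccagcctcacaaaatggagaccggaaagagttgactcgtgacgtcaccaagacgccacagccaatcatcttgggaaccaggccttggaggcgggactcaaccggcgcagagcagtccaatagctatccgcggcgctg
Cdc6: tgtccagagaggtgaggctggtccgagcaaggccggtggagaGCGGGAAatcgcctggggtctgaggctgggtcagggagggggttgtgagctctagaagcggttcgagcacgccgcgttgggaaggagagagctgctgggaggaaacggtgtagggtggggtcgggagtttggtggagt
Mcm2: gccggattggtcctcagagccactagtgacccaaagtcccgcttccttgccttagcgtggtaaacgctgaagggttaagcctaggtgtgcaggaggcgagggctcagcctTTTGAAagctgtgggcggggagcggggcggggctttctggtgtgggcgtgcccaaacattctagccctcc
E2F-like letters were present in 7 of the 9 member promoters (6 of 8 genes, not Mcm2 or Mcm10), against 16.7% of the 12439 promoters of genes tested here and 9.57% of all 32851 promoters. In Mcm6 a run matching both strands began at -109 and recurred at -46, and in Cdt1 the matches at 19 and 34 lay after the start. CHR-like letters were in 2 of the 9 member promoters (Mcm2 and 1 promoter of Mcm7) and in 14% of those of tested genes. The E-box was in 0 of the 9, against 9.79%. These matches overlap one another and describe letters only, not binding.

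**Figure D1:**
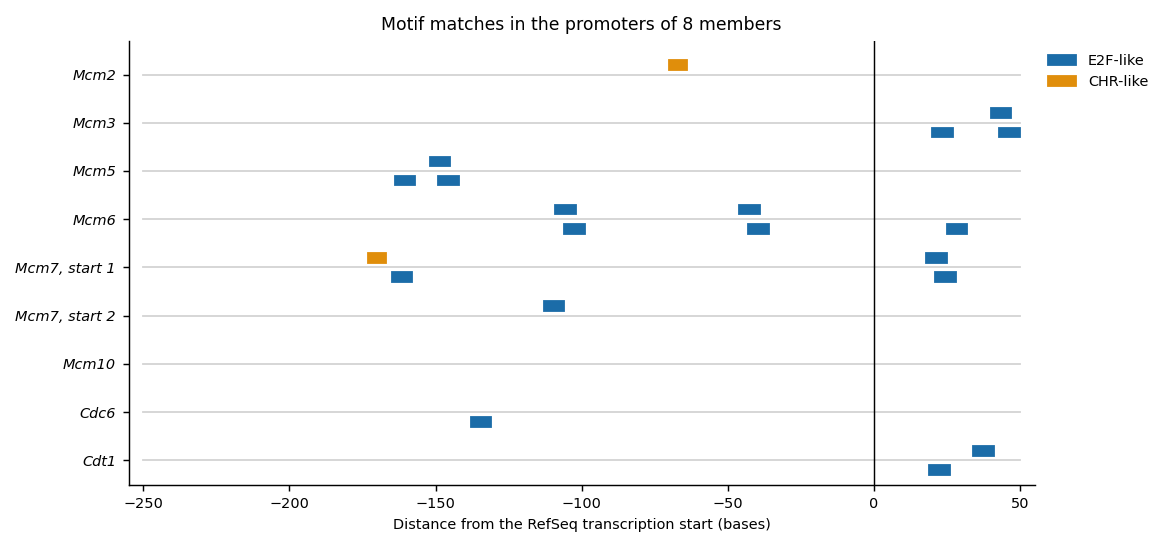
Positions of motif letters in the 9 member promoters, in bases from the start site (x axis), 1 line per promoter. Boxes above a line are on the coding strand and boxes below it on the other; E2F-like boxes lie on 7 of the 9 lines and no line holds the E-box.

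Loss of Trim33 without the Myc vector was compared first, since the question was what changes in unchallenged cells. In KO1, 7 of the 10 members rose, 2 fell (Mcm2 and Cdt1) and 1 (Mcm10) did not pass. In KO2, 8 rose, 1 fell (Cdt1) and 1 (Mcm2) did not pass. Over all 13107 genes, 52.2% passed in KO1 (25.5% higher, 26.7% lower) and 49.9% in KO2 (23.3% higher, 26.6% lower). Libraries of KO1 and WT Ctrl did not overlap for 83.9% of all genes, and those of KO2 and WT Ctrl for 82.1%. Between KO2 and KO1 this share was 69.9%. A lack of overlap, given below for some members, was thus common to most genes. The median log2 fold change of the members was 0.65 for KO1 and 0.84 for KO2, beside medians of all genes of -0.0036 and -0.0112. The WT Ctrl pair serves both of these comparisons, which are thus not independent. In bulk RNA, a larger share of cells in S phase and more mRNA per cell cannot be told apart. The paper reports that without stress, growth and the distribution over the cell cycle were not changed by the knockout. Those measurements were made apart from these libraries, and how they relate to the members' values was not tested.

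Among the ring subunits, Mcm4 (16:15623990-15637493, minus strand, coordinates on mm9 here and below) rose the most. Mcm4 stood at 104 and 95.9 CPM in the WT pair, 213 and 223 in the KO1 pair and 286 and 289 in the KO2 pair. The 3 groups did not overlap, and the rise was 2.18-fold in KO1 (log2 1.12, SE 0.08, adjusted p = 5.04e-09) and 2.87-fold in KO2 (log2 1.52, SE 0.08, adjusted p = 1.76e-10). With Mcm6 and Mcm7, Mcm4 can form a subcomplex that unwinds DNA by itself in vitro.

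Mcm6 (1:130228168-130256233, minus strand) was at 215 and 187 CPM in the WT pair, 333 and 338 in the KO1 pair and 354 and 362 in the KO2 pair. The log2 fold changes were 0.74 (SE 0.06, adjusted p = 4.13e-08) and 0.83 (SE 0.06, adjusted p = 1.24e-08). Mcm7 (5:138605811-138613650, minus strand) had 186 and 163 CPM in the WT pair, 261 and 276 in the KO1 pair and 318 and 307 in the KO2 pair, log2 fold changes of 0.62 and 0.84. Both KO lines lay above WT in every library for each of the pair. Exons of Mcm7 share 321 bases with Ap4m1 and 64 with Cops6 on the opposite strand and hold the microRNA genes Mir25 and Mir93, and since strand use in counting was not stated, reads in those bases cannot be assigned to Mcm7 alone.

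Mcm3 (1:20793055-20810359, minus strand) and Mcm5 (8:77633427-77652338, plus strand) are neighbours in the ring, and Mcm5 forms with Mcm2 the gate through which DNA enters. Mcm3 stood at 134 and 128 CPM in the WT pair, 204 and 216 in the KO1 pair and 234 and 224 in the KO2 pair, log2 fold changes of 0.68 and 0.80 (SE 0.06 for both). Mcm5 stood at 120 and 110.5 CPM in the WT pair, 159 and 169 in the KO1 pair and 211 and 213 in the KO2 pair, log2 fold changes of 0.51 (SE 0.07) and 0.88 (SE 0.07). Neither gene overlapped between WT and a KO line.

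Mcm2 (6:88833469-88848774, minus strand), which also binds histones, was the one ring subunit that did not rise in either line. It stood at 208 and 214 CPM in the WT pair, 174 and 169 in the KO1 pair and 203 and 208 in the KO2 pair. Mcm2 fell in KO1 (log2 fold change -0.30, SE 0.06, adjusted p = 0.000328), and in KO2 the log2 fold change was -0.04 (SE 0.06, adjusted p = 0.595).

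The loading factors went in opposite directions. Cdc6 (11:98769115-98785254, plus strand), the ATPase that joins the origin recognition complex before loading, was at 28.0 and 23.5 CPM in the WT pair, 52.0 and 50.2 in the KO1 pair and 62.8 and 63.4 in the KO2 pair. That is a rise of 1.99-fold in KO1 (log2 0.99, SE 0.10, adjusted p = 2.96e-07) and 2.45-fold in KO2 (log2 1.29, SE 0.10, adjusted p = 1.25e-08). Cdt1 (8:125091915-125097028, plus strand), which brings the ring to the origin, was at 114 and 118 CPM in the WT pair, 80.9 and 80.5 in the KO1 pair and 94.7 and 90.4 in the KO2 pair. Cdt1 fell in both, with log2 fold changes of -0.52 (SE 0.06, adjusted p = 1.48e-06) and -0.33 (SE 0.06, adjusted p = 0.000206).

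Gmnn (13:24843714-24853792, minus strand), which encodes the protein that binds and blocks Cdt1, stood at 24.3 and 21.1 CPM in the WT pair, 42.5 and 45.9 in the KO1 pair and 53.5 and 54.2 in the KO2 pair. It rose 1.95-fold in KO1 (log2 0.96, SE 0.09) and 2.38-fold in KO2 (log2 1.25, SE 0.09). Mcm10 (2:4910760-4933837, minus strand) was at 47.1 and 43.8 CPM in the WT pair, 44.1 and 44.6 in the KO1 pair and 61.2 and 58.8 in the KO2 pair. The KO1 libraries lay within the range of WT (log2 fold change -0.03, SE 0.07, adjusted p = 0.7), and KO2 lay above it (0.40, SE 0.07, adjusted p = 0.000118).

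The KO lines also differed from each other. Between KO2 and KO1 with the Ctrl vector, 4 members were higher in KO2 (Mcm2, Mcm4, Mcm5 and Mcm10), 0 were lower and 6 did not pass, where 18.3% of all genes passed (8.33% higher, 9.96% lower). The log2 fold change was positive for all 10 members, from 0.09 for Mcm6 to 0.44 for Mcm10. Leaving out 1 library ended the call of Mcm2 (each of the 4 libraries), of Mcm4 (KO1 replicate 1 or KO2 replicate 2) and of Mcm5 (KO1 replicate 1), with adjusted p up to 0.0431, 0.0198 and 0.014, while Mcm10 remained called (highest adjusted p = 0.00462).

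**Figure D2:**
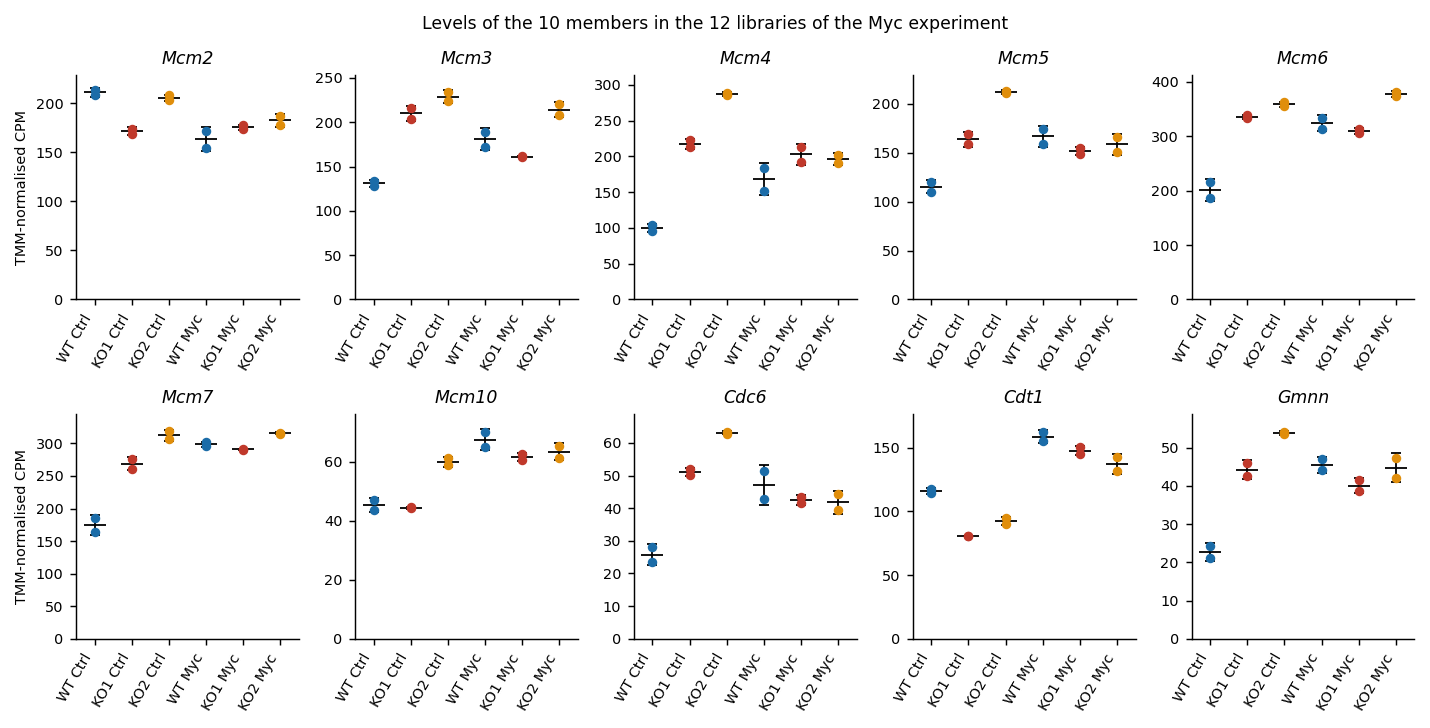
CPM of the 10 members in the 12 libraries of the Myc experiment, 1 panel per gene with its own axis from 0; points are libraries and bars group means. In WT Ctrl the points of Mcm3 to Mcm7, Cdc6 and Gmnn lie below every other group, and those of Mcm2 lie above every other group, by the least margin over KO2 Ctrl.

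The Myc vector in Trim33-WT cells was compared with the Ctrl vector to ask what the added Myc vector changes. All 10 members passed, with 9 higher and 1 lower (Mcm2), where 44.3% of all genes passed (21.6% higher, 22.7% lower). The median log2 fold change of the members was 0.63, beside 0.0069 for all genes. As given above, Myc mRNA did not pass the test between these groups, and the comparison uses the WT Ctrl libraries of the KO comparisons again.

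Gmnn showed the largest rise, to 47.0 and 44.0 CPM in WT Myc (log2 fold change 1.00, SE 0.09, adjusted p = 1.58e-07). Cdc6 reached 42.7 and 51.3 CPM (0.87, SE 0.10). Mcm7 was at 296 and 302 CPM (0.77, SE 0.06) and Mcm4 at 152 and 184 CPM (0.75, SE 0.08). These 4 genes had also risen in both KO lines with the Ctrl vector.

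Mcm6 was at 313 and 334 CPM in WT Myc (log2 fold change 0.69), Mcm5 at 159 and 175 (0.53) and Mcm3 at 173 and 190 (0.47). Cdt1 and Mcm10 also rose. Cdt1 was at 162 and 155 CPM (0.45, SE 0.06, adjusted p = 7.95e-06), above WT Ctrl, whereas in both KO Ctrl lines it lay below WT Ctrl. Mcm10 was at 64.9 and 70.0 CPM (0.57, SE 0.07). Mcm2 fell to 154 and 172 CPM (-0.37, SE 0.06, adjusted p = 6.12e-05), and none of these Mcm2 values overlapped WT Ctrl. Between WT Myc and WT Ctrl, 75.2% of all genes did not overlap.

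In the KO lines the Myc vector had other values. In the libraries labelled KO1, 2 members rose (Mcm10 and Cdt1), 1 fell (Mcm3) and 7 did not pass, where 36.1% of all genes passed (17.9% higher, 18.2% lower). In those labelled KO2, 1 rose (Cdt1), 3 fell (Mcm4, Mcm5 and Cdc6) and 6 did not pass, where 38.8% passed (20.2% higher, 18.6% lower). Members' medians were -0.11 and -0.13. Cdt1 was thus the one member that rose under both labels.

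Cdt1 stood at 150 and 145 CPM in the libraries labelled KO1 Myc, against 80.9 and 80.5 in KO1 Ctrl (log2 fold change 0.87, SE 0.06, adjusted p = 7.72e-09). It stood at 131 and 143 CPM in those labelled KO2 Myc, against 94.7 and 90.4 in KO2 Ctrl (0.57, SE 0.06, adjusted p = 9.34e-07). Averaged over both lines, Cdt1 rose by 0.72 and Mcm10 by 0.28 on the log2 scale. The same average was lower for 5 members, namely Cdc6 (-0.43), Mcm4 (-0.33), Mcm5 (-0.26), Mcm3 (-0.24) and Gmnn (-0.20), and did not pass for Mcm2 (-0.07), Mcm6 (-0.02) and Mcm7 (0.07).

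Whether the vector had another effect in KO than in WT cells was tested by an interaction term. For KO1, 2 members were more positive than in WT (Mcm2 and Cdt1), 7 were more negative and 1 (Mcm10) did not pass, where 37.3% of all genes passed (19.2% higher, 18.1% lower). For KO2, 0 were more positive, 8 more negative and 2 (Mcm2 and Cdt1) did not pass, where 32.8% passed (16.6% higher, 16.2% lower). Gmnn had an interaction of -1.15 (SE 0.12) for KO1 and -1.27 (SE 0.12) for KO2, and Cdc6 one of -1.14 (SE 0.14) and -1.46 (SE 0.14). Averaged over both KO lines, all 10 members passed, from -1.30 for Cdc6, -1.21 for Gmnn and -1.08 for Mcm4 to 0.27 for Cdt1 and 0.30 for Mcm2. The share of all genes that passed this average is not given, and those of the single lines do not stand for it. The interaction includes the WT Ctrl libraries, in which most members were at their lowest and Mcm2 at its highest, so it shares its data with the comparisons above.

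**Figure D3:**
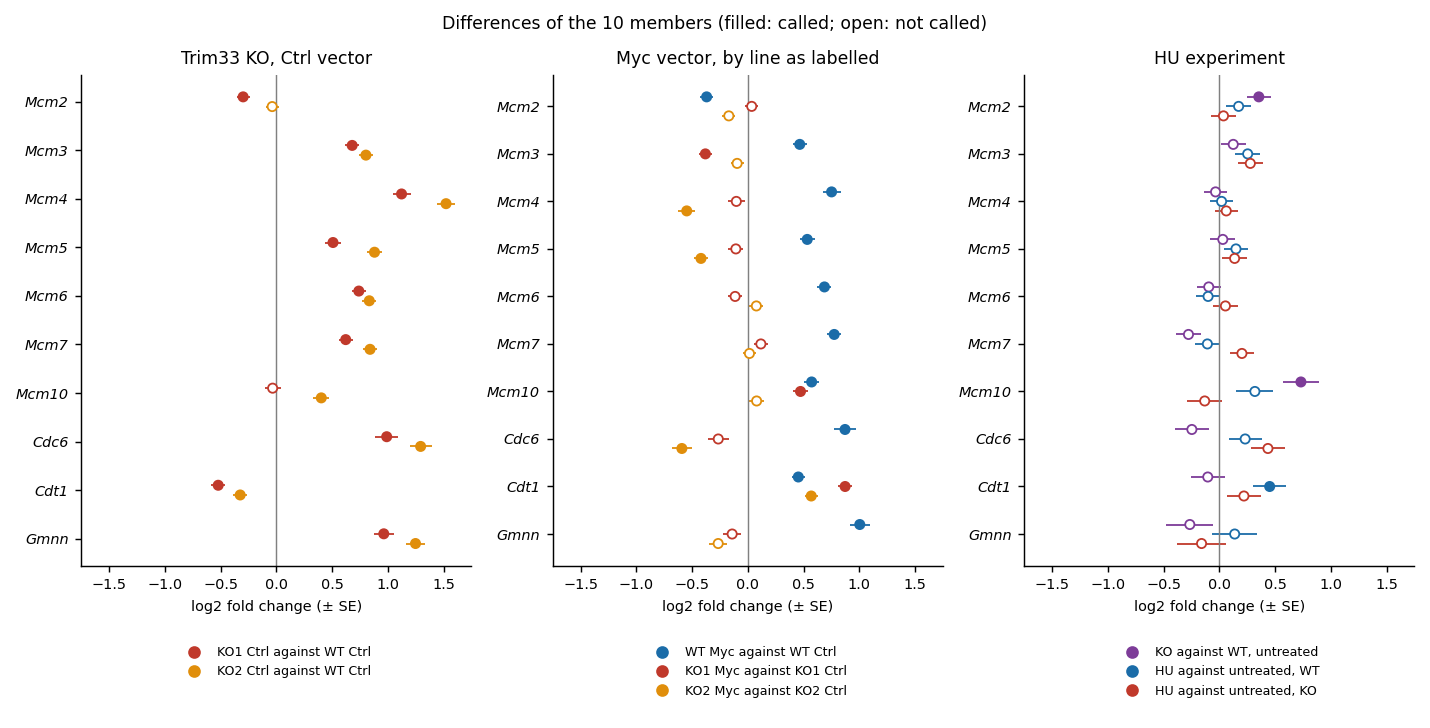
Log2 fold change of each member (x axis) with 1 SE. The panels show KO against WT with the Ctrl vector, Myc against Ctrl vector within each line, and the HU experiment. The last holds untreated KO against WT, and HU against untreated in WT and in KO. Filled points passed the adjusted p threshold and open points did not. Gmnn and Cdc6 lie at or above 0.87 in the 3 comparisons with WT Ctrl, and Cdt1 is filled for the Myc vector under both KO labels.

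With the Myc vector, each KO label was compared with WT, and the KO labels were not tested against each other. Between the libraries labelled KO1 and WT, 0 of the 10 members passed, where 25.1% of all genes did. DESeq2 also called 0, and 3 (Mcm3, Mcm4 and Gmnn) had an unadjusted p below 0.05. Between those labelled KO2 and WT, 2 were higher (Mcm3 and Mcm6), 1 was lower (Cdt1) and 7 did not pass, where 35.2% passed (17.2% higher, 18% lower). Mcm3 was at 220 and 208 CPM in the libraries labelled KO2 Myc against 173 and 190 in WT Myc (log2 fold change 0.24, SE 0.06, adjusted p = 0.00342), and each of these 3 calls was lost when 1 library was left out (highest adjusted p 0.0446 for Mcm3, 0.05 for Mcm6 and 0.102 for Cdt1). Calls were also gained. Without WT Myc replicate 2, Mcm4 passed for both KO labels (log2 fold change 0.41, adjusted p = 2.78e-05 for KO1, and 0.37, adjusted p = 7.86e-05 for KO2), and Mcm2 passed for KO2 (0.24, adjusted p = 0.00144). Without WT Myc replicate 1, Mcm3 passed for KO1 (-0.23, adjusted p = 0.00444) and Cdc6 for KO2 (-0.30, adjusted p = 0.0092), and without the replicate 1 labelled KO1 Myc, Mcm4 passed for KO1 (0.36, adjusted p = 0.0073). The WT Myc libraries differed most of all pairs, at 11.05 times the counting noise (mean squared difference). With KO lines averaged, Mcm4 alone passed (log2 fold change 0.25, adjusted p = 0.0077).

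Relative levels of the subunits were followed within each library, as a description with no test. After division by exon length, Mcm2 made up 23.62% and 25.97% of the sum of the 6 ring subunits in the WT Ctrl libraries. In the other libraries of the Myc experiment it made up 13.4% to 15.2%. Mcm4 made up 11.1% and 10.9% in WT Ctrl and 16.5% to 18.7% in the 4 KO Ctrl libraries. In CPM rather than shares, the libraries of WT Ctrl held the highest values of Mcm2 and the lowest of the other 5 in the experiment. In the HU experiment the share of Mcm2 was 14.6% to 15.9% in WT and 16.7% to 18.5% in KO libraries, so the WT cells of the HU experiment did not show the high share of WT Ctrl.

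The ratio of Cdt1 to Gmnn counts, an mRNA ratio of the loader to its inhibitor, was 4.70 and 5.58 in WT Ctrl. It was 1.67 to 1.91 in the 4 KO Ctrl libraries and 3.02 to 3.75 in the 6 libraries with the Myc vector. The 3 ranges did not overlap. In the HU experiment the ratio ranged from 1.78 to 3.69, and both ends came from KO libraries (1.78 and 3.69 in the 2 untreated ones).

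**Figure D4:**
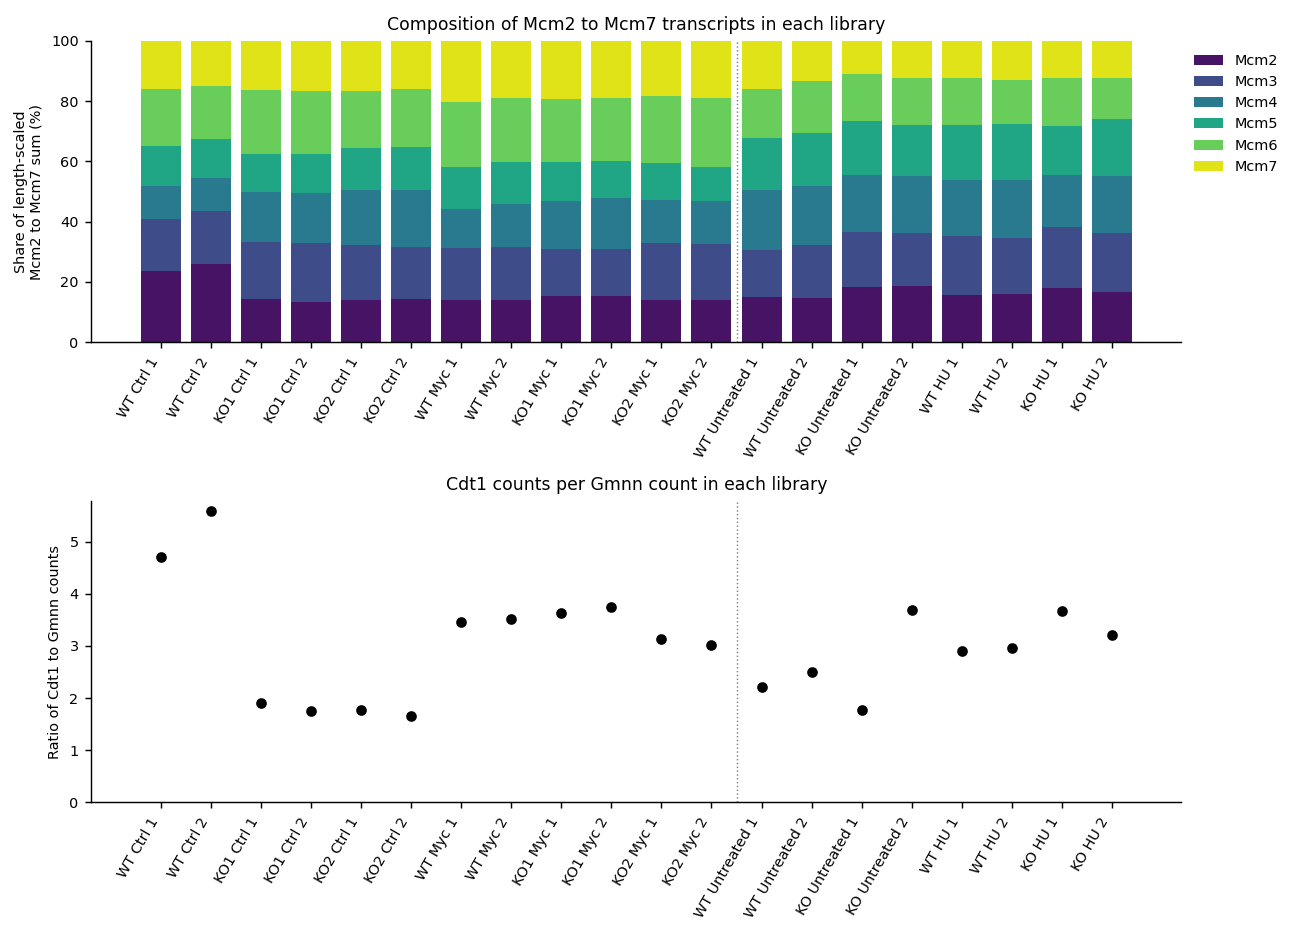
Shares of Mcm2 to Mcm7 in their length-scaled sum (percent, stacked bars, upper panel) and ratio of Cdt1 to Gmnn counts (points, lower panel) in each of the 20 libraries, by group. WT Ctrl has the largest share of Mcm2, at 23.62% and 25.97%, and the highest ratio, at 4.70 and 5.58.

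Levels per kilobase of exon order the members within a group. In WT Ctrl the order was Mcm2 (62.6 ± 1.24 CPM per kb, SD, n = 2), Cdt1 (53.0 ± 1.08), Mcm6 (46.0 ± 4.66), Mcm3 (43.9 ± 1.38), Mcm7 (39.5 ± 3.58), Mcm5 (33.0 ± 1.98), Mcm4 (27.9 ± 1.62), Gmnn (19.1 ± 1.93), Mcm10 (5.90 ± 0.30) and Cdc6 (4.92 ± 0.60). The neighbours Mcm6 and Mcm3, and Mcm3 and Mcm7, do not differ beyond their spread. In both KO Ctrl groups Mcm6 was first (76.9 ± 0.90 and 82.0 ± 1.17 CPM per kb) and Mcm2 was the fifth. Mcm10 and Cdc6 were the lowest per kilobase in every group of the Myc experiment.

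HU was used to stall forks. It is an inhibitor of ribonucleotide reductase, so that cells accumulate in S phase. In Trim33-WT cells 1 member rose (Cdt1), 0 fell and 9 did not pass, where 9.83% of all genes passed (6.39% higher). In Trim33-KO cells 0 of 10 passed, where 6.45% of all genes did, DESeq2 also called 0, and 2 (Mcm3 and Cdc6) had an unadjusted p below 0.05. The interaction of HU and KO passed for 0 members and 0.0714% of all genes, with 0 at an unadjusted p below 0.05 and 0 by DESeq2, so no difference in response between WT and KO was detected. The interactions of the members ranged from -0.45 (SE 0.23) for Mcm10 to 0.31 (SE 0.16) for Mcm7 on the log2 scale.

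Cdt1 stood at 96.8 and 112 CPM in untreated WT and at 147 and 139 CPM in WT with HU (log2 fold change 0.45, SE 0.15, adjusted p = 0.0356). Between these groups, 51% of all genes did not overlap. The groups did not overlap, but the call was lost without untreated replicate 1 (adjusted p = 0.253) or either HU library (0.251 and 0.124) and with DESeq2 (0.166). In KO cells Cdt1 stood at 75.2 and 118 CPM untreated and 114 and 113 CPM with HU, and the spread between the untreated libraries exceeds the difference.

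Cdc6 was at 86.6 and 75.2 CPM in untreated KO and 100.04 and 119 CPM with HU (log2 fold change 0.44, SE 0.15, adjusted p = 0.0682). Mcm3 was at 274 and 279 CPM in untreated KO and 340.1 and 330.0 with HU (0.28, SE 0.11, adjusted p = 0.144). The groups did not overlap for either gene, as for 45.1% of all genes, and neither passed. Mcm4 varied least of the members in this experiment, from 340.3 to 376 CPM over all 8 libraries.

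Between Trim33-KO and WT cells without HU, 2 members were higher (Mcm2 and Mcm10), 0 lower and 8 did not pass, where 12% of all genes passed (6.29% higher). Mcm10 stood at 55.3 and 62.0 CPM in WT and 95.1 and 99.9 in KO, a 1.66-fold rise (log2 0.73, SE 0.16, adjusted p = 0.00126). Its groups did not overlap, as for 50.1% of all genes. Mcm2 stood at 242 and 261 CPM in WT and 314 and 328 in KO (log2 fold change 0.35, SE 0.11, adjusted p = 0.024). Its call was lost without WT replicate 1 (0.30, adjusted p = 0.135) or KO replicate 2 (0.33, adjusted p = 0.0989).

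Neither Mcm2 nor Mcm10 had risen in both KO lines with the Ctrl vector. Mcm4, the subunit with the largest rise there, stood at 343 and 370.3 CPM in untreated WT and 340.3 and 357 in untreated KO (log2 fold change -0.03, SE 0.11, adjusted p = 0.891). Cdc6 and Gmnn had log2 fold changes of -0.25 (adjusted p = 0.325) and -0.26 (adjusted p = 0.478). The experiments were normalised and tested separately, and the difference between them was not tested. With HU, 0 of 10 members passed between KO and WT, where 11% of all genes did; DESeq2 also called 0, and 3 (Mcm2, Cdt1 and Gmnn) had an unadjusted p below 0.05. Gmnn had the largest difference, with 31.1 and 35.2 CPM in KO against 50.6 and 47.1 in WT (-0.56, SE 0.21, adjusted p = 0.0692).

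**Figure D5:**
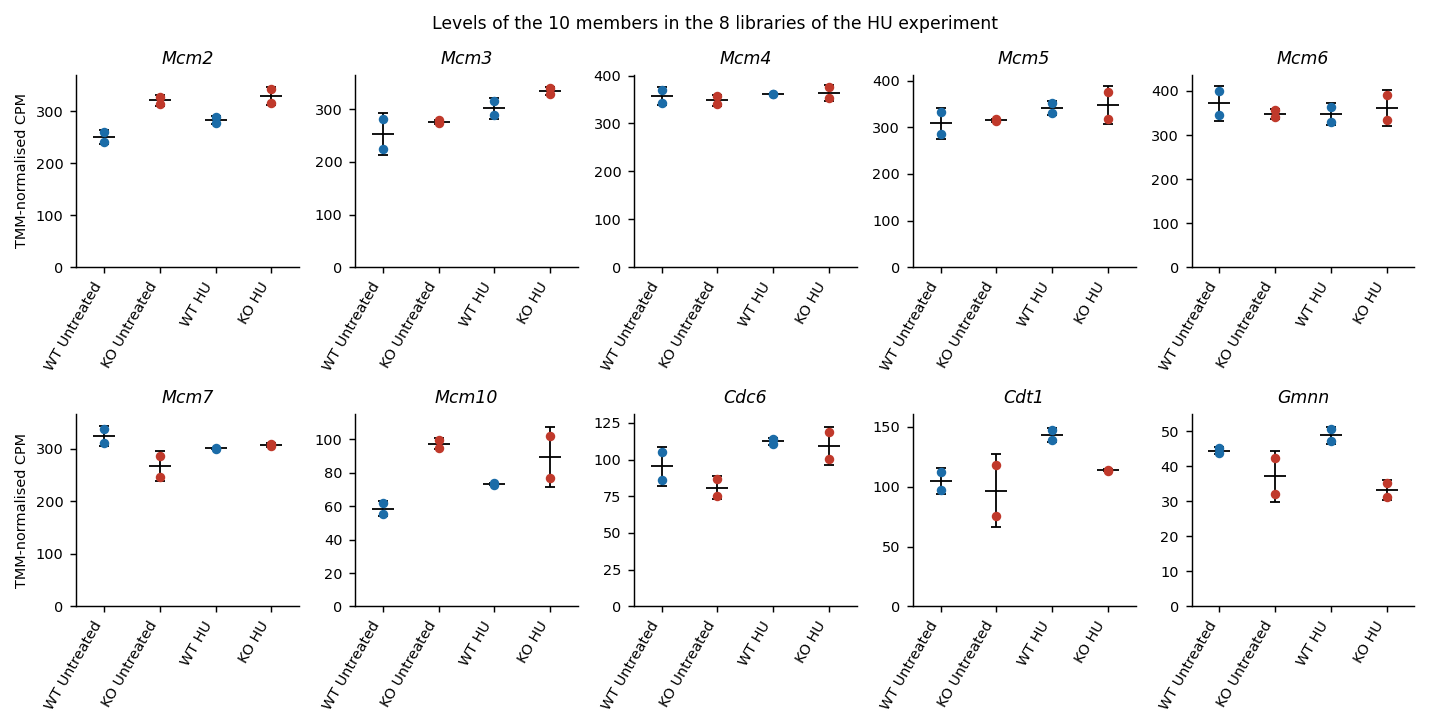
CPM of the 10 members in the 8 libraries of the HU experiment, 1 panel per gene with its own axis from 0; points are libraries and bars group means. Mcm10 lies at 55.3 and 62.0 in untreated WT and 95.1 and 99.9 in untreated KO, and the groups of Mcm4 lie level.

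Over the 10 group means, each centred on its own experiment, Mcm3 to Mcm7 correlated with each other at r = 0.71 to 0.95. Mcm2 correlated with those 5 at -0.49 to 0.05. Cdc6 correlated with Mcm5 at 0.95, and Cdt1 with Gmnn at 0.01. These values describe 10 points that share libraries and carry no test.

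Among 8797 genes with a mean of at least 10 CPM in both experiments, members left out, the patterns most like a member's were found by the same measure. For Mcm5 they were Gins2 (r = 0.97), a GINS subunit of the active helicase, Ints3 (0.96) and Rnaseh2b (0.95), a subunit of RNase H2. For Cdc6 they were Vsig10 (0.96), Tedc1 (0.94) and Gins2 (0.93), and for Gmnn they were Donson (0.97), a replication initiation factor, Pitpnm1 (0.97) and Ift27 (0.97). Genes most like Mcm2 were others, namely Prrc2b (0.99), Polr3f (0.95), a subunit of RNA polymerase III, and Nup160 (0.94), a nuclear pore subunit. Those most like Cdt1 were Pgam5 (0.96), Mcm8 (0.95) and Mrpl4 (0.95).

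Other factors of licensing and firing, a list of 24 genes that were all tested, moved in both directions. In KO1 Ctrl 10 rose and 5 fell (41.7% and 20.8%, beside 25.5% and 26.7% of all genes), in KO2 Ctrl 14 rose and 5 fell (58.3% and 20.8%, beside 23.3% and 26.6%), and in WT Myc 14 rose and 4 fell (58.3% and 16.7%, beside 21.6% and 22.7%), with medians of 0.09, 0.33 and 0.37. The shares that fell were thus somewhat below those of all genes. Cdc45, which joins the ring at activation, rose in both KO lines (0.81 and 0.85). Gins2 rose in KO2 (1.16), and Orc4, a subunit of the origin recognition complex, fell in KO1 (-0.87), in KO2 (-0.73) and in WT Myc (-0.60).

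Of the genes that act in Cdt1 turnover and control of re-replication, 11 of the 13 listed were tested. In KO1 Ctrl 6 rose and 1 fell (54.5% and 9.09%), in KO2 Ctrl 7 rose and 1 fell (63.6% and 9.09%), and in WT Myc 5 rose and 3 fell (45.5% and 27.3%, the latter near the 22.7% of all genes). Dtl, which targets Cdt1 for destruction on chromatin, rose by 0.92, 0.89 and 1.08 on the log2 scale. Fbxo5, an inhibitor of the anaphase-promoting complex, rose by 0.81 in KO1 and 0.76 in KO2.

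Genes of the cell cycle moved beside the members. Of 32 S phase genes tested, 28 rose and 0 fell in KO1 Ctrl, 30 and 0 in KO2 Ctrl and 27 and 0 in WT Myc, with medians of 0.71, 0.89 and 0.69. Of 50 G2/M genes, 32 rose and 3 fell in KO1 Ctrl, 43 and 1 in KO2 Ctrl and 27 and 2 in WT Myc, with medians of 0.38, 0.59 and 0.23. The shares of all genes are those given for the other licensing factors. The interaction of the vector with KO1 passed for 25 S phase genes with a negative value and 0 with a positive one. That with KO2 passed for 26 and 1, and the average over both KO lines for 27 and 0. No share of all genes is given for the average. Of the 4 fibroblast markers tested, 3 rose and 0 fell in KO1 Ctrl, and 2 rose and 2 fell in KO2 Ctrl, whose summed level was near that of WT Ctrl (174 and 193 against 182 and 183 CPM). In WT Myc 2 of the 4 rose and 1 fell. Of the 3 epithelial keratins tested, 2 fell in KO1 Ctrl, 2 in KO2 Ctrl and 3 in WT Myc, and 0 rose. Their sum was 4140 to 4306 CPM in WT Ctrl, 3174 to 3218 in KO1 Ctrl, 3438 to 3499 in KO2 Ctrl and 3047 to 3526 in WT Myc. Afp fell in the same 3 comparisons (log2 fold change -5.19, -1.92 and -0.51), and Cd68 did not pass. The part of cell cycle position or of other cells in the members' values was not tested.

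The cell cycle lists were also counted in the HU experiment. With HU, 1 of the 50 G2/M genes rose and 19 fell in WT, and 2 rose and 20 fell in KO, among them Cenpf, a kinetochore protein (-1.23 and -1.01), while Gtse1 rose (1.09 and 0.81). That is 40% and 44% of the G2/M list, beside 9.83% and 6.45% of all genes. Of the 32 S phase genes 0 passed in WT, and 4 rose and 0 fell in KO (12.5%). Between untreated KO and WT, 1 S phase gene rose and 3 fell (12.5%), and 2 G2/M genes rose and 4 fell (12%), which is near the 12% of all genes. Summed fibroblast markers (Col1a1, Col3a1 and Pdgfrb) were at 57.5 to 64.7 CPM in the WT libraries and 8.02 to 13.8 CPM in the KO libraries, and their part in the values of Mcm2 and Mcm10 was not tested.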

How the data were processed

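RNA-seq libraries of p19/Nras cells were made from total RNA with a NEBNext Ultra II kit, per the labels. Reads were aligned to mm9 by STAR 2.5.4, and the authors deposited counts as whole numbers. Only part of the genome's genes is covered. The Myc counts list 13107 genes and the HU counts 11210, with lowest sums over libraries of 26 and 29. Genes such as Alb, Epcam and Cdh1 are absent, so shares of all genes refer to the listed genes alone. The name of the Myc counts speaks of normalised counts, and whether they were scaled before deposit was not tested. The processing notes also name bcl2fastq 2.20 and FastQC 0.11.5 for the HU experiment and edgeR 3.26.8. The tool, annotation and strand setting used for counting are not given in the sources used here. Of the counts from 1 to 50, 71.9% were even in the HU experiment and 48.4% in the Myc experiment, and the reason was not tested; if fragments were counted as a pair of reads, the spread from counting in the HU experiment is larger than its totals imply. The authors also deposited results of their own comparisons (log2 fold changes, average log2 CPM, test statistics, p-values), which were not used.

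The analysis was run in R 4.3.3 (edgeR 4.0.16, limma 3.58.1), and DESeq2 1.42.0 served as an alternative. Each experiment was fitted alone over all of its libraries, scaled by TMM, with a coefficient for each group and the quasi-likelihood test (two-sided). Benjamini-Hochberg adjustment covered all 13107 or 11210 genes, of which filterByExpr removed 0; 298 and 168 have no symbol. The biological coefficient of variation was 0.0498 and 0.102. SE is the log2 fold change divided by the root of the F statistic. Adjusted p thresholds of 0.01 and 0.05 follow the study. Replicate libraries differed by 2.21 to 11.1 times the counting noise (mean squared difference), so none was an exact copy of the other. These values do not tell whether replicates were technical repeats. They are too high for the HU experiment if its fragments were counted as a pair of reads. On simulated data with 200 genes changed by a log2 of 1, 83.5% were recovered for KO1 against WT (13107 genes) and 66% for HU against untreated WT (11210 genes). Of the unchanged genes, 1 and 10 were called. Far fewer genes were changed there than passed in the data (52.2% for KO1 against WT Ctrl and 9.83% for HU in WT). Smaller changes were not simulated. These values thus do not give the recovery of the tests used here, nor that of changes below a log2 of 1.

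The 10 members, the gene lists (licensing, Cdt1 turnover, S phase, G2/M, cell type markers) and the tests were chosen with earlier results of these data known. All members are named. Other genes are named as the check of the labels, as the 3 most alike in pattern to 5 of the members, or as up to 3 of a list with the lowest adjusted p. Gene positions and exon lengths come from a GENCODE annotation of NCBIM37 (mm9), promoters from RefSeq on GRCm38.p6. Alternatives were another scaling, DESeq2, other filters, only the compared groups in the fit, a fold criterion, a replicate block, HU counts divided by 2, and each library left out. The average over both KO lines and a crossed block were added after seeing the data. Figures were drawn with matplotlib 3.10.9.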

Additional observations from a re-analysis of the deposited data

Results flagged for a closer look

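The effect of the Myc vector differed between Trim33-KO and Trim33-WT cells by the interaction term itself for 17 values of the members, all by edgeR with adjusted p below 0.01. In the libraries labelled KO1 the differences on the log2 scale were 0.404 for Mcm2, -0.847 for Mcm3, -0.855 for Mcm4, -0.641 for Mcm5, -0.801 for Mcm6, -0.658 for Mcm7, -1.14 for Cdc6, 0.420 for Cdt1 and -1.15 for Gmnn. In those labelled KO2 they were -0.562 for Mcm3, -1.30 for Mcm4, -0.953 for Mcm5, -0.611 for Mcm6, -0.760 for Mcm7, -0.493 for Mcm10, -1.46 for Cdc6 and -1.27 for Gmnn. Both sets rest on the same WT Ctrl libraries. Averaged over the KO lines, the interaction had the same sign as each value here. It passed for all 10 members, with no share of all genes given for the average. Trim33, Afp and the fibroblast markers go against the line labels of the Myc vector libraries, and their part in these values was not tested.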

How the results depend on the processing

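Over 150 pairs of a member and a comparison, 1920 values under alternatives gave 0 reversed calls, and 71 calls changed other than by the fold criterion (28 lost, 43 gained). In the 3 comparisons of KO1 Ctrl, KO2 Ctrl and WT Myc with WT Ctrl, 0 of 320 such values changed a call. Requiring an absolute log2 fold change of at least 1 left 1 member for KO1 and 3 for KO2 against WT Ctrl, 1 for the Myc vector in WT, 2 and 3 for the interactions with KO1 and KO2, and 0 for KO2 against KO1, the Myc vector in KO1 and KO2, KO2 against WT with the Myc vector, untreated KO against WT and HU in WT. With the compared groups alone in the fit, 9 members passed between KO2 and KO1 (8 with the Ctrl libraries alone), 0 between KO2 and WT Myc, 1 between untreated KO and WT and 3 between KO and WT with HU; the cause was not tested. DESeq2 called 0 for HU in WT. Dividing the HU counts by 2 changed no call of a member. Averaging both KO lines, which uses 4 KO libraries per vector, gave 7 members for the Myc vector in KO cells and 1 against WT Myc. The share of all genes under this average is not given beside these counts.

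Leaving out 1 library gave 1 to 3 members for KO2 against KO1, 0 to 1 for KO1 and 0 to 5 for KO2 against WT Myc, 1 to 2 for untreated KO against WT, 0 to 2 for HU in WT and 0 to 1 for HU in KO. Deviations of same-numbered libraries from their group means correlated at r from -0.42 to 0.55 in the Myc experiment, highest for WT Myc with KO1 Myc (0.55) and WT Ctrl with WT Myc (0.22), and from -0.02 to 0.11 in the HU experiment. The correlations differed in sign and no label ties the numbers to a shared culture or day, so the numbers were not taken as pairs. With a replicate block, 1 member passed for HU in KO (Cdc6, 0.43, adjusted p = 0.0478), and the block changed no other call of a member. A crossed replicate block for KO2 against WT Myc, where r was -0.42, gave 4 members in place of 3.

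Counts over all genes moved by more than 1.5 times in some settings. The fold criterion left 2090 of 6842 genes for KO1 and 1691 of 6545 for KO2 against WT Ctrl, 654 of 2398 between them, 1066 of 5807 for Myc in WT, 1025 of 4735 and 1195 of 5090 in KO1 and KO2, 690 of 3291 and 1231 of 4614 against WT Myc, 1671 of 4887 and 1370 of 4296 for the interactions, and 411 of 1349, 336 of 1102, 262 of 723, 358 of 1233 and 2 of 8 in the HU experiment (untreated KO, HU in WT, HU in KO, KO with HU, interaction). Without it, counts ranged from 1383 to 4029 between KO2 and KO1, 1541 to 4433 and 2775 to 5441 against WT Myc, 751 to 1494 for untreated KO, 553 to 1230 and 389 to 825 for HU, 518 to 1893 for KO with HU and 0 to 20 for the HU interaction.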
